A study of Rattus norvegicus with 6 samples.

Results

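The 32 genes described here encode proteins of G2 and mitosis: the kinases that drive entry into division, the cyclins that activate them, the checkpoint that holds anaphase, and the proteins of the centromere, spindle and cleavage furrow. They were taken from a list of gene symbols, and all 32 were found among the 22601 genes of the deposited table. RNA-seq was made from RBL-2H3, a rat basophilic leukemia line of wild-type genotype that is used as a model of mast cells. One group was 3 libraries of cells exposed to PIO, a PPARγ agonist by the study's title, at 10 µM during 6 h, and the other was 3 control libraries without PIO. Both groups grew in MEM with fetal bovine serum, penicillin G and streptomycin, and the study asked how gene expression differs between them. The labels used here give the controls neither a vehicle nor a time, and an effect of the vehicle cannot be told apart from one of PIO. They also do not say whether replicates were separate cultures. If they were not, the p-values reflect only technical spread.

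The G2 and mitosis genes are largely controlled by the DREAM and MuvB complexes, B-Myb and FoxM1. These regulators act at promoters that carry CCAAT boxes and a cell cycle homology region. In a dividing cell the genes are transcribed late in the cycle. Their mRNAs accumulate toward mitosis and decline afterwards, and many of the proteins are destroyed at mitotic exit by the anaphase-promoting complex. In an unsynchronised culture their mRNA is widely read as a marker of how much of the culture is cycling. Bulk RNA averages over all phases, so fewer cells in G2 or mitosis and less RNA per such cell cannot be told apart.

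Between PIO and control cells, 0 of the 32 genes passed the limma test with Benjamini-Hochberg adjustment over all 10410 genes tested, where 0.0384% of all genes passed. At an unadjusted limma p under 0.05 there were 2 members, Cdk1 with a higher and Anln with a lower PIO mean, which is 6.25% of the members against 12.5% of all genes tested. The summed level of the 32 genes was 1518.2, 1568.2 and 1576.2 FPKM in PIO replicates 1 to 3, against 1545.3, 1569.8 and 1521.1 FPKM in control replicates 1 to 3. These sums overlapped. FPKM are fragments scaled by the authors to gene length and library size, so levels can be compared between genes. The median log2 fold change, PIO over control on the log2(FPKM + 0.5) scale, was 0.0035 over the members and 0.0094 over all genes tested, with 19 members above 0 and 13 below. Under TPM scaling these medians were -0.025 and -0.019.

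The size of change that these libraries allow is set by the limma 95% interval of each gene. All 32 intervals lay inside a 1.25-fold change in either direction. The lowest bound was -0.31 for Anln and the highest 0.23 for Ccnf, both as log2 fold changes. These are intervals for 1 gene at a time, not for the 32 together. The median standard error was 0.0463 for the members and 0.0645 over all genes. It was 0.0505 over the 4953 genes tested whose levels lay between those of the lowest and highest member. The mRNAs were abundant, with mean levels between 12.4 FPKM for Cdc25c and 142.6 FPKM for Ube2c, and 31 of 32 stood above the median level of the genes tested. No member had fewer than 459 reads in any library, as recovered from the FPKM, and that lowest count was for Cenpa.

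**Figure D1:**
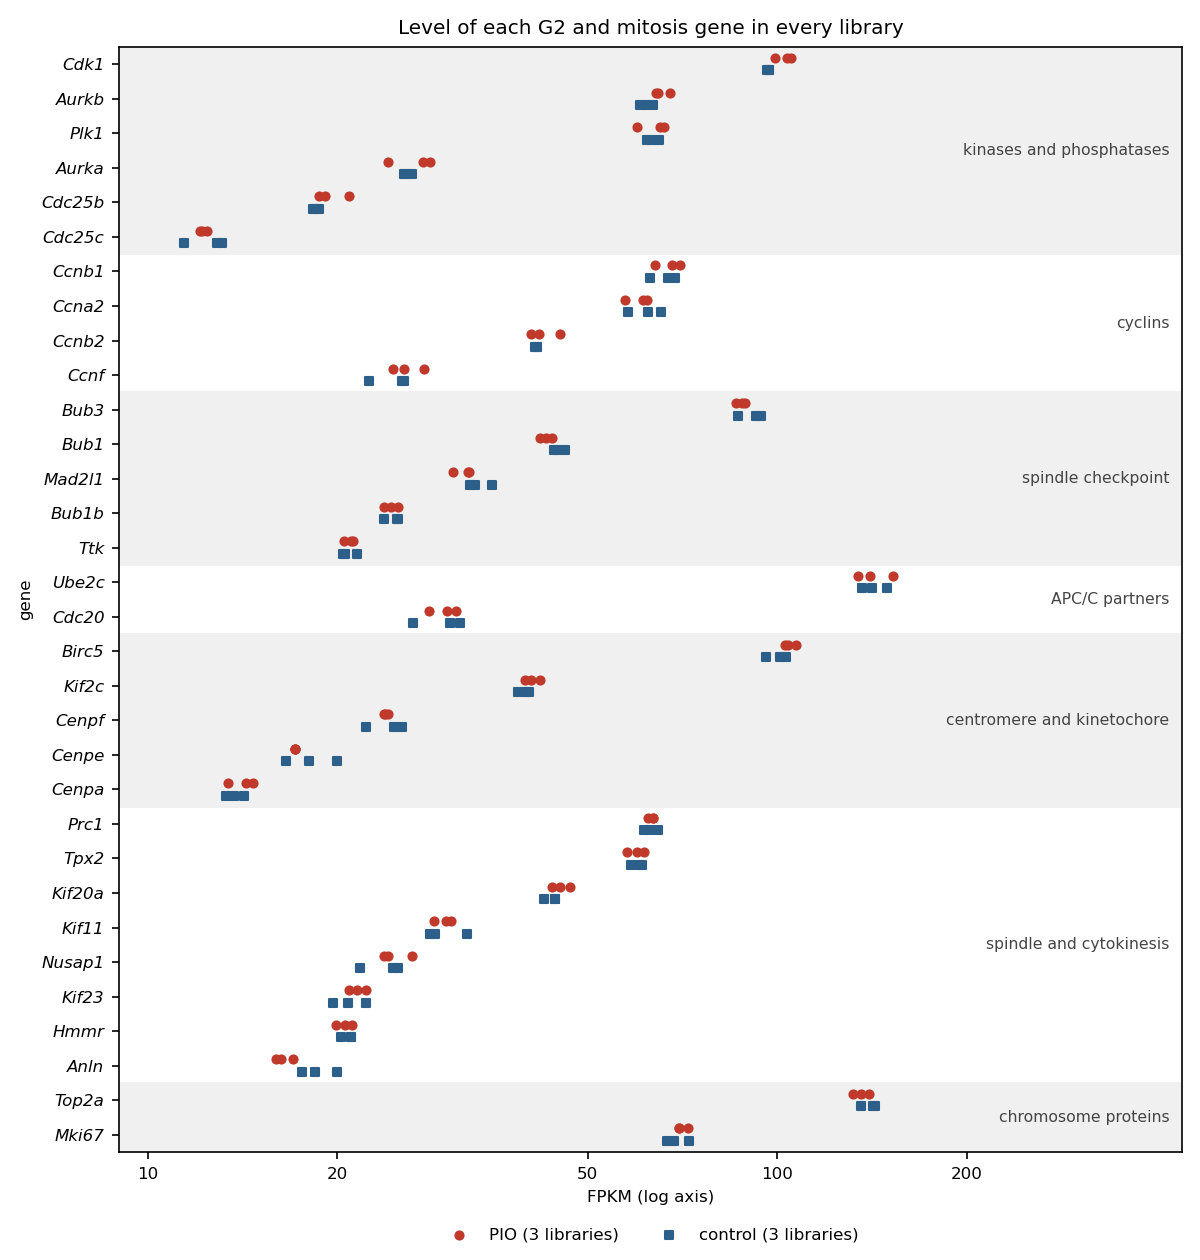
FPKM of the 32 genes on a log axis, 1 row per gene, ordered by mean level within each role; red circles are the 3 PIO libraries and blue squares the 3 control libraries. The spread within a group covers most differences between groups, and levels run from about the 12.4 FPKM of Cdc25c to the 142.6 FPKM of Ube2c.

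Several promoters show what the genes share in sequence. The windows run from 250 bases before to 50 after the annotated gene start in the RefSeq annotation of the rat assembly GRCr8. Capitals mark CCAAT, or ATTGG for the opposite strand, and the core letters TTTGAA or TTCGAA of the cell cycle homology region, with TTCAAA for the opposite strand. The windows shown are those of Cdk1 and Anln, the genes with the lowest p, and of Ccnb2 and Plk1, where both elements stand close to the start. Cdk1 lies at chr20:19265043-19265342 (+ strand), Plk1 at chr1:186147408-186147707 (+ strand), Ccnb2 at chr8:79981609-79981908 (- strand) and Anln at chr8:29197464-29197763 (- strand).
Cdk1: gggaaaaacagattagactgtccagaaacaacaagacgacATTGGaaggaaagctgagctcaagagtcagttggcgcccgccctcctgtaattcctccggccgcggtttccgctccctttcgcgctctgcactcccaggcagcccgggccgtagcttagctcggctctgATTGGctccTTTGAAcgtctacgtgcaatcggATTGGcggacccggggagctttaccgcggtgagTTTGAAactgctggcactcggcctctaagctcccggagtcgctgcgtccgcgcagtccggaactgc
Plk1: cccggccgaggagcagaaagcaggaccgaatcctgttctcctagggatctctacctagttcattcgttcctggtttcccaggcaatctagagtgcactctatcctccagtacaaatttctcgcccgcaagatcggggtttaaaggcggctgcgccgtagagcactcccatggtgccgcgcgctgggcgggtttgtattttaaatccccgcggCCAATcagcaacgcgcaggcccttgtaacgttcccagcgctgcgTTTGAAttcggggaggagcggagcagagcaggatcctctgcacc
Ccnb2: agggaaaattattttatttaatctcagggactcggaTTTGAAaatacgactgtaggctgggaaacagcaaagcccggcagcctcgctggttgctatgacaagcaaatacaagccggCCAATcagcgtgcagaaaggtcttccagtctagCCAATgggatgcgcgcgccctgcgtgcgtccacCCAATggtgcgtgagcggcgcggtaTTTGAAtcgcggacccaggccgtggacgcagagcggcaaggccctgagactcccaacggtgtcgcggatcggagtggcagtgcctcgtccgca
Anln: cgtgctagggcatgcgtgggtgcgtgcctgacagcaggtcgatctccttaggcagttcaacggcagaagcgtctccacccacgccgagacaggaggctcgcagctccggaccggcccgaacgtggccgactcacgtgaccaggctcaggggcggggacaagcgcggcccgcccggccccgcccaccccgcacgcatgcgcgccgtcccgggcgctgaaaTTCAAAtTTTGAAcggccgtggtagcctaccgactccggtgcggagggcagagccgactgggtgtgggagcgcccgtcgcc

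In Ccnb2 the 3 CCAAT boxes began at -134, -101 and -68 from the start, 33 and 33 bases apart. They were followed by TTTGAA at -43, and another TTTGAA stood before them at -214. Plk1 had 1 CCAAT box at -38 and TTTGAA at 6. The Cdk1 window held 3 CCAAT boxes and 2 core matches, at -72 and -16. Anln held no CCAAT and 2 core matches side by side, at -31 and -24. Windows were available for 28 of the 32 members, all but Aurkb, Ccna2, Ube2c and Tpx2. Of these 28, 21 (75.0%) held a core match, against 19.5% of all 27457 windows in the table and 14.2% of the 8384 windows of genes tested here. CCAAT was in 22 of 28 (78.6%), against 37.7% of all windows and 39.1% of those tested. Both stood in 18 of 28 (64.3%), against 7.83% and 5.99%. Matches were counted on both strands, overlapping matches included. Among the S phase genes, which act earlier in the cycle, 3 of 22 windows (13.6%) held both. The share was 7 of 16 (43.8%) for condensin, cohesin and separase genes. It was 3 of 13 (23.1%) for G2 checkpoint and mitotic entry regulators and 4 of 22 (18.2%) for other kinetochore and passenger complex genes. Anaphase-promoting complex genes and transcriptional regulators of cell cycle genes each had 2 of 14 (14.3%), and G1 genes 0 of 8. A match is a run of letters, and no binding was measured.

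Kinases and their activating phosphatases trigger entry into mitosis, and 5 of the 6 genes had a higher mean in PIO cells. Cdk1, the kinase at the centre of mitotic entry, stood at 99.3, 105.2 and 103.8 FPKM in PIO cells and at 97.1, 97.2 and 96.2 FPKM in control cells. Every PIO value lay above every control value, by a narrow margin. The means were 102.8 ± 3.07 and 96.9 ± 0.557 FPKM (SD, n = 3 each), and the log2 fold change was 0.085 (SE 0.0344; limma, adjusted p = 0.379). Aurkb, the kinase of the chromosomal passenger complex, had 64.7, 67.6 and 64.3 FPKM with PIO against 63.4, 61.8 and 60.5 FPKM in control. Cdc25b, a phosphatase that activates Cdk1, had 19.1, 18.7 and 20.9 FPKM with PIO against 18.7, 18.4 and 18.3 FPKM in control. Aurkb did not overlap between groups, and its limma adjusted p was 0.416. In Cdc25b the lowest PIO and the highest control value are equal as printed and differ only in further digits, and the limma adjusted p was 0.54. Cdc25b is counted below among the genes that do not overlap.

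The other 3 of the 6 overlapped. Plk1, the polo kinase of centrosomes, kinetochores and cytokinesis, had 59.8, 65.2 and 66.1 FPKM in PIO libraries and 63.3, 64.9 and 62.2 FPKM in control libraries. Its lowest and highest values were both from PIO libraries. Aurka, the spindle pole kinase, was alike in this, with 24.1, 28.1 and 27.4 FPKM with PIO against 25.6, 26.3 and 25.5 FPKM in control. Its coefficient of variation between PIO libraries, 7.88%, was the highest of any member. Cdc25c, a second activating phosphatase and the least abundant member, had 12.2, 12.1 and 12.4 FPKM with PIO and 13.1, 11.4 and 12.9 FPKM in control (log2 fold change -0.027, limma adjusted p = 0.873). Over the 6 genes the median log2 fold change was 0.059, with 5 above 0, as were 5618 of all 10410 genes tested. Plk1, at 0.0033, was the nearest to 0 of the 5 and turned sign under 7 of the 17 alternative settings given below.

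Cyclins A2, B1 and B2 switch on Cdk1 and its relatives, while cyclin F, encoded by Ccnf, is a substrate receptor of an SCF ubiquitin ligase. None of the 4 cyclin genes separated the groups. Ccnb1 had 63.9, 70.2 and 68.0 FPKM with PIO against 68.8, 67.0 and 62.9 FPKM in control. Ccna2 had 61.2, 62.1 and 57.3 FPKM with PIO against 62.3, 65.3 and 58.0 FPKM in control. In both genes the ranges of the groups overlapped over most of their width. The log2 fold changes were 0.024 (95% interval -0.088 to 0.14) for Ccnb1 and -0.038 (-0.16 to 0.083) for Ccna2. Ccnf had the lowest limma adjusted p of the 4, 0.608, with 24.5, 25.5 and 27.5 FPKM in PIO cells and 25.5, 25.3 and 22.5 FPKM in control cells.

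Ccnb2 is uncertain as a single gene, because the table also lists LOC100364016, annotated as similar to cyclin B2, and reads can be shared between them. Ccnb2 stood at 42.6 ± 2.36 FPKM with PIO and 41.4 ± 0.0885 FPKM in control, and LOC100364016 at 30.9 ± 1.82 and 30.4 ± 0.702 FPKM (SD, n = 3 each). The sum of both was 69.5, 73.6 and 77.3 FPKM in PIO libraries against 71.1, 72.4 and 72.0 FPKM in control libraries, again overlapping. The median log2 fold change of the 4 cyclin genes was 0.03.

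The spindle checkpoint keeps Cdc20 from activating the anaphase-promoting complex until every kinetochore is attached. Of its 5 genes, 4 had lower means in PIO cells, with a median log2 fold change of -0.054. Over all 10410 genes tested, 4792 had a log2 fold change below 0. Bub1, a kinetochore kinase of the checkpoint, had 43.0, 43.8 and 42.0 FPKM with PIO against 44.2, 46.0 and 44.8 FPKM in control. Mad2l1, which encodes the Mad2 protein that binds Cdc20, had 32.3, 32.4 and 30.5 FPKM with PIO against 33.1, 35.2 and 32.5 FPKM in control. In these genes every PIO value lay below every control value, and the gap between the nearest values was small. Neither passed, with log2 fold changes of -0.065 for Bub1 (SE 0.0371, limma adjusted p = 0.492) and -0.082 for Mad2l1 (SE 0.0467, limma adjusted p = 0.494).

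Bub3, the most abundant of the 5 and the partner of both Bub1 proteins, had 88.0, 86.0 and 89.0 FPKM in PIO libraries and 92.5, 94.1 and 86.6 FPKM in control libraries. Control replicate 3 alone lay among the PIO values. Ttk, the Mps1 kinase that starts the checkpoint signal, was the least abundant at 21.2, 21.0 and 20.5 FPKM with PIO against 20.6, 20.4 and 21.5 FPKM in control. Bub1b, which encodes BubR1 of the mitotic checkpoint complex, averaged 24.3 ± 0.666 FPKM with PIO and 24.5 ± 0.734 FPKM in control (SD, n = 3 each).

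Cdc20 activates the anaphase-promoting complex and Ube2c is the ubiquitin-conjugating enzyme that works with it. Ube2c, the most abundant member, had 134.5, 140.7 and 153.0 FPKM in PIO cells against 149.4, 141.6 and 136.5 FPKM in control cells. Its values in the groups covered nearly the same range, and the log2 fold change was 0.0017 (95% interval -0.12 to 0.13). Cdc20 had 28.0, 30.9 and 29.9 FPKM with PIO and 30.2, 31.3 and 26.4 FPKM in control.

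At centromeres and kinetochores, Cenpa encodes the histone H3 variant that marks the centromere, Cenpe a kinesin that moves chromosomes, Cenpf a large kinetochore protein, Birc5 survivin of the passenger complex, and Kif2c a microtubule depolymerase. Birc5 had the lowest limma adjusted p of the 5, 0.507, and the highest level, with 102.8, 104.0 and 107.3 FPKM with PIO against 103.2, 101.0 and 95.9 FPKM in control. Cenpa, the lowest in level, had 13.4, 14.3 and 14.7 FPKM in PIO libraries and 13.3, 14.2 and 13.7 FPKM in control libraries. Cenpe differed most in spread. Its PIO values were 17.1, 17.1 and 17.1 FPKM, against 16.6, 18.0 and 20.0 FPKM in control. The control coefficient of variation, 9.29%, was the highest of any member, and the PIO coefficient, 0.11%, the lowest. Cenpf averaged 23.9 ± 0.23 FPKM with PIO and 24.0 ± 1.61 FPKM in control, and Kif2c 40.8 ± 1.1 and 39.6 ± 0.843 FPKM (SD, n = 3 each). Over all 32 genes, the coefficient was higher in control for 17 and higher in PIO for 15, with medians of 3.12% in PIO and 3.51% in control libraries.

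Anln, which encodes anillin, the scaffold of the cytokinetic ring, was the gene with the lowest p of the 32. It stood at 17.0, 16.3 and 16.0 FPKM in PIO cells and at 17.6, 20.0 and 18.4 FPKM in control cells. Every PIO value was below every control value, and control replicate 2 stood above the rest. The mean was 16.4 ± 0.509 FPKM with PIO and 18.7 ± 1.25 FPKM in control (SD, n = 3 each), a difference of -12.1%. The log2 fold change was -0.18 (95% interval -0.31 to -0.046, SE 0.058), and the limma adjusted p of 0.34 did not pass. Without control replicate 2 the lowest limma adjusted p over the members was that of Anln too, at 0.581. The table also lists Anlnl1, a related gene at 3.81 ± 0.365 FPKM with PIO and 4.09 ± 0.111 FPKM in control (SD, n = 3 each), so reads may be split between them. The sum of both was 20.3, 20.3 and 20.0 FPKM in PIO libraries against 21.6, 24.3 and 22.4 FPKM in control libraries.

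The other spindle genes overlapped between groups. Prc1, which crosslinks midzone microtubules, was the steadiest member, with 62.3, 63.5 and 63.6 FPKM with PIO against 61.5, 62.8 and 64.6 FPKM in control, its highest library 1.05 times its lowest. Tpx2, which activates aurora A on spindle microtubules, averaged 59.7 ± 1.96 FPKM with PIO and 60.0 ± 1.24 FPKM in control (SD, n = 3 each). The kinesin genes had log2 fold changes of -0.0023 for Kif11, whose product pushes spindle poles apart, 0.046 for Kif20a, and 0.045 for Kif23 of the centralspindlin complex. Nusap1, a microtubule bundling protein gene, was at 0.058 and Hmmr, a spindle assembly factor gene, at -0.016. The limma adjusted p-values of these 5 genes lay between 0.646 for Kif20a and 0.992 for Kif11.

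Mki67 and Top2a encode abundant proteins of mitotic chromosomes, the Ki-67 coat protein and the topoisomerase that untangles sister chromatids. Mki67 had 69.8, 72.3 and 69.8 FPKM with PIO against 66.8, 72.4 and 68.5 FPKM in control (log2 fold change 0.03, limma adjusted p = 0.776). Top2a had 132.0, 139.9 and 135.7 FPKM with PIO against 135.9, 143.0 and 141.8 FPKM in control (log2 fold change -0.046, limma adjusted p = 0.615). Both overlapped, and their 95% intervals were -0.063 to 0.12 and -0.13 to 0.039.

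**Figure D2:**
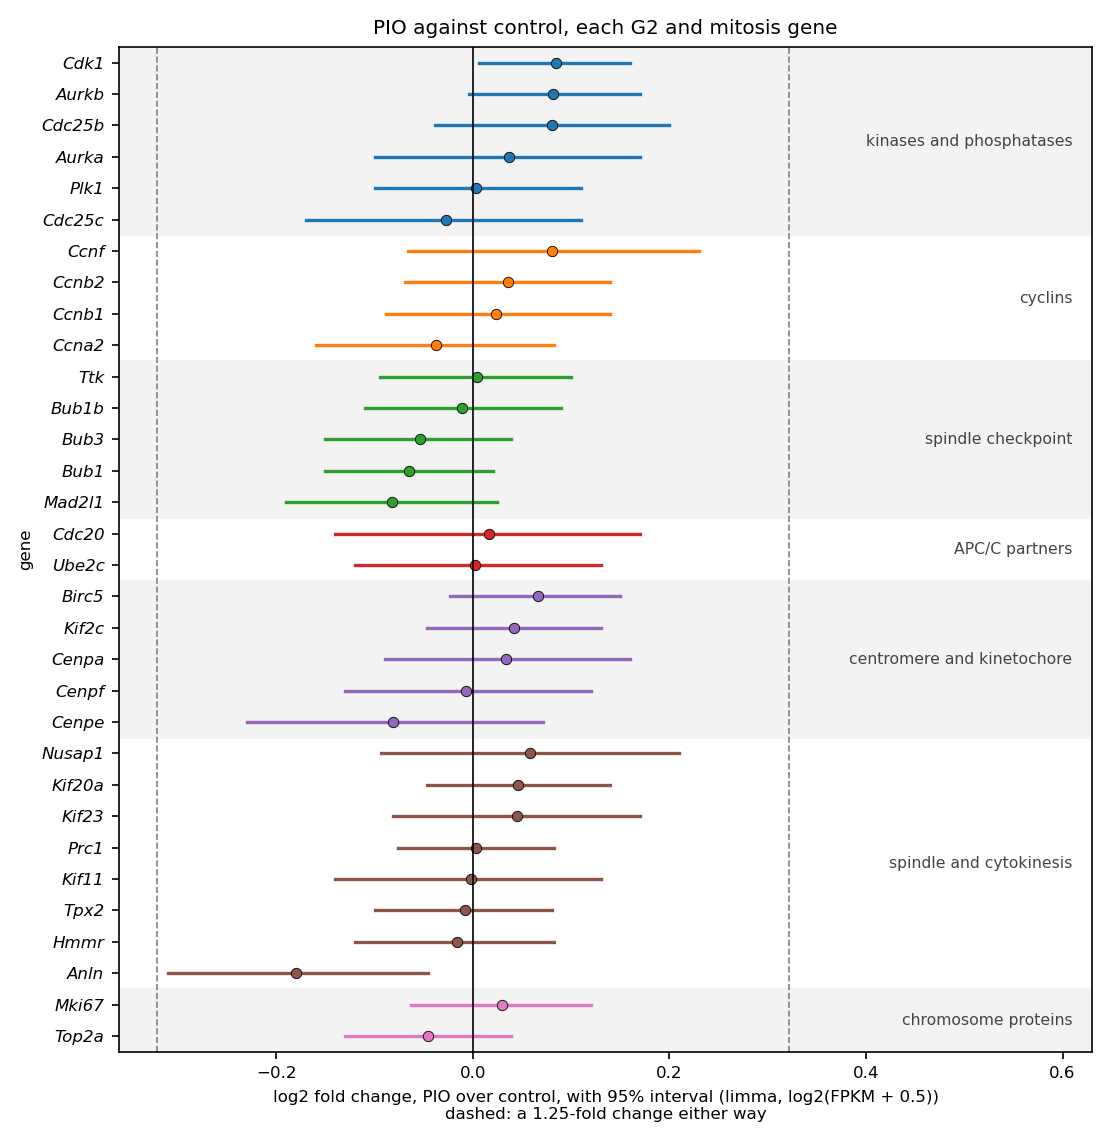
Log2 fold change, PIO over control, of each gene with its limma 95% interval, coloured and grouped by role; the dashed lines mark a 1.25-fold change. All 32 intervals lie between the dashed lines, and those of Cdk1 and Anln alone leave out 0.

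Across the roles, groups that did not overlap were seen for 6 members, 3 with PIO higher (Cdk1, Aurkb and Cdc25b) and 3 with PIO lower (Bub1, Mad2l1 and Anln). That is 18.8% of the members, against 18.5% of all genes tested. The role medians ran from -0.054 for the spindle checkpoint to 0.059 for kinases and phosphatases. The summed level of the kinase and phosphatase genes was 279.3, 296.9 and 294.9 FPKM in PIO libraries and 281.3, 280.0 and 275.6 FPKM in control libraries, so PIO replicate 1 lay among the controls. That of the checkpoint genes was 209.5, 207.5 and 205.8 FPKM in PIO libraries and 215.4, 220.7 and 209.0 FPKM in control libraries, so control replicate 3 lay among the PIO values. That of the centromere and kinetochore genes was 198.2, 198.9 and 204.8 FPKM in PIO libraries and 195.3, 197.2 and 194.5 FPKM in control libraries, which do not overlap. Birc5 makes up the largest part of this sum, and its log2 fold change of 0.066 was 0.016 under the length correction described below. The median log2 fold change of the centromere and kinetochore genes was 0.034, and 0.0059 under TPM scaling. The cyclin sums were 190.3, 199.6 and 197.9 FPKM in PIO libraries and 198.0, 199.1 and 184.7 FPKM in control libraries. They overlapped, as did the sums of the remaining roles. No role was tested as a group.

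The highest and lowest values of the members were spread unevenly over the libraries. PIO replicate 3 held the highest value for 11 of the 32 members (34.4%, against 19.8% of all genes tested), and control replicate 3 the lowest for 10 (31.2%, against 24.2%). PIO replicate 1 was highest for 1 member (3.12%, against 13.4% of all genes) and lowest for 6 (18.8%, against 10.2%). Control replicate 1 was alike, highest for 1 member (3.12%, against 10.3%) and lowest for 7 (21.9%, against 14.7%). Control replicate 2 held the highest value for 9 members (28.1%, against 17.4%). The median deviation of the members from their own means was -0.02, 0.0095 and 0.016 in PIO replicates 1 to 3, against -0.013, 0.021 and -0.025 in control replicates 1 to 3, on the log2 scale. Each group thus held libraries on both sides of 0. Without PIO replicate 1 the members' median log2 fold change was 0.041 and that of the kinases and phosphatases 0.093, with no member called. Without PIO replicate 2 these were -0.0022 and 0.028, and without PIO replicate 3 the kinase and phosphatase median was 0.024. The highest library of a member was 1.12 times its lowest as a median over the 32, and 1.25 times for Anln, the widest.

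**Figure D3:**
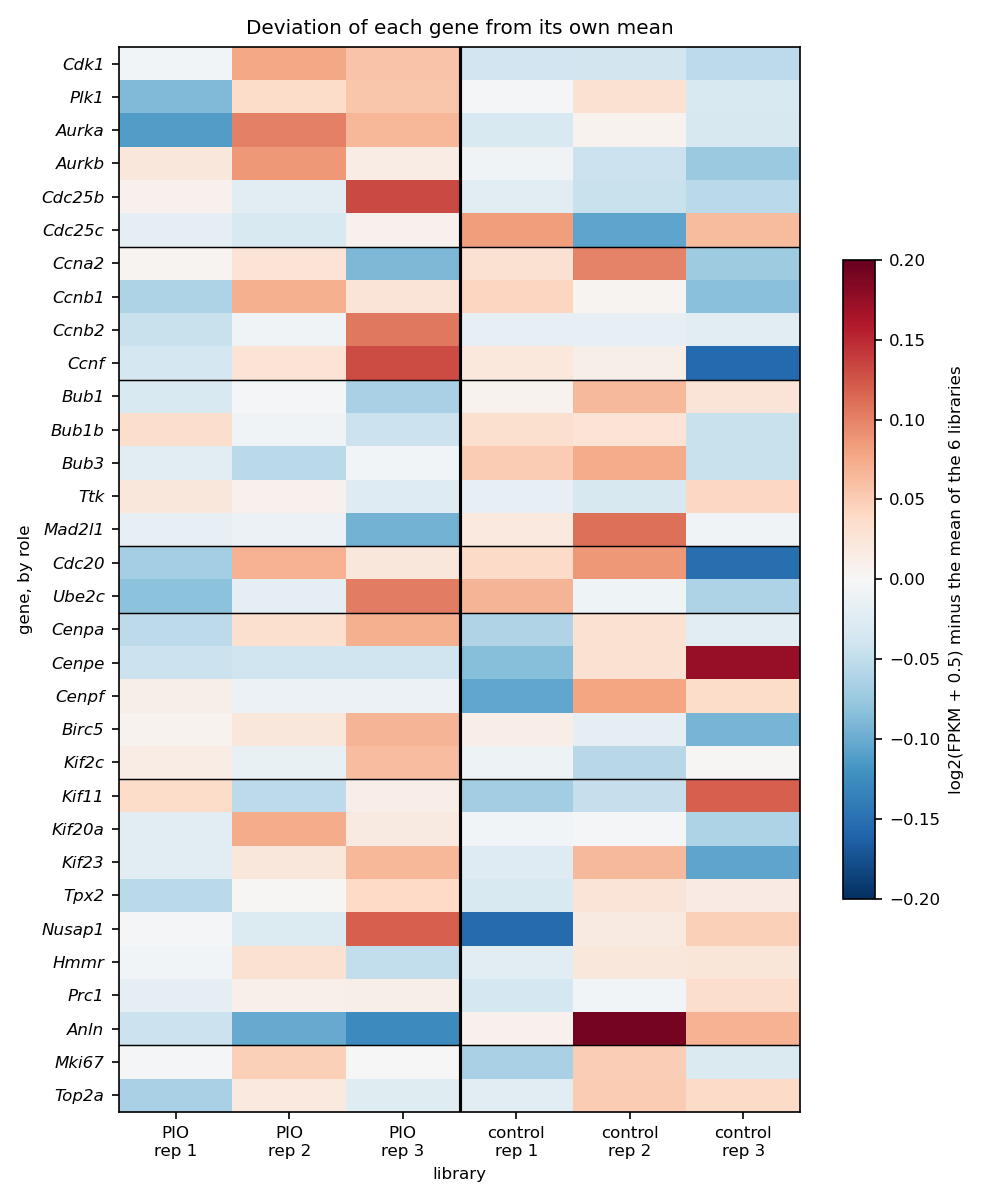
Heat map of log2(FPKM + 0.5) minus the mean of the 6 libraries, 1 row per gene in order of role, with the 3 PIO libraries left of the vertical line and the 3 control libraries right of it. Red is above and blue below the gene's own mean, and both colours stand on each side of the line, with control replicate 3 lowest for 10 genes.

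Other cell cycle genes likewise held none that passed. Of 141 further genes in 7 lists, 139 were matched in the table and 136 were abundant enough to test, with 68 above 0 and 68 below. With limma 0 passed, and 15 (11.0%) had an unadjusted p under 0.05, against 12.5% of all genes. Among regulators of cell cycle transcription, the genes with the lowest p were Rbl1, a pocket protein of the DREAM complex, at 17.0 ± 2.29 FPKM with PIO and 20.7 ± 1.57 FPKM in control, and E2f3, at 7.94 ± 0.51 and 9.32 ± 0.741 FPKM (SD, n = 3 each). Their limma adjusted p-values were 0.34 and 0.347. Foxm1 and Mybl2, the FoxM1 and B-Myb genes, were looked up after their values were seen. Foxm1 had 22.9, 23.3 and 23.5 FPKM with PIO against 22.5, 22.0 and 21.2 FPKM in control, and Mybl2 had 51.8, 52.3 and 49.2 FPKM with PIO against 47.1, 49.4 and 44.1 FPKM in control. The first did not overlap between groups and the second did, with limma adjusted p-values of 0.445 for Foxm1 and 0.379 for Mybl2. In the list of anaphase-promoting complex subunits these were Cdc26 (log2 fold change 0.27, limma adjusted p = 0.34) and Cdc27 (-0.13, 0.439). In that of other kinetochore and passenger genes they were Cdca8, which encodes borealin (0.14, limma adjusted p = 0.346), and Zwint (0.084, 0.443).

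Condensin, cohesin and separase genes had the lowest median of the 7 lists, -0.056, with 12 of 18 below 0. At an unadjusted limma p under 0.05 there were 6 of 18 (33.3%, against 12.5% of all genes), 1 higher and 5 lower, and none passed. Groups did not overlap for 7 of the 18 (38.9%, against 18.5% of all genes). The median gene length was 4151 bases in this list and 2790.5 bases over all genes tested, and the part of length in these counts was not tested. Wapl, which releases cohesin from chromatin, stood at 34.1 ± 2.64 FPKM with PIO and 39.2 ± 2.03 FPKM in control (SD, n = 3 each), a log2 fold change of -0.2 (adjusted p = 0.339, limma). The cohesin subunit gene Stag1 stood at 8.95 ± 0.302 FPKM with PIO and 10.0 ± 0.361 FPKM in control (-0.15, limma adjusted p = 0.362). G2 checkpoint and mitotic entry regulators had a median of -0.045. Atm, the DNA damage kinase gene, stood at 13.6 ± 0.766 FPKM with PIO and 15.6 ± 0.749 FPKM in control (limma adjusted p = 0.32), and the kinase gene Nek2 at 18.7 ± 0.346 and 19.8 ± 0.0841 FPKM (limma adjusted p = 0.445).

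S phase genes had a median of 0.023 over 29 genes, with Chaf1b at 0.13 (limma adjusted p = 0.421) and Rrm1 at 0.057 (0.477) the lowest in p. None of the 29 had an unadjusted limma p under 0.05. Among G1 cyclins, kinases and inhibitors, the inhibitor gene Cdkn2c stood at 9.12 ± 0.543 FPKM with PIO and 7.92 ± 0.0469 FPKM in control (limma adjusted p = 0.337), and Ccnd1, the cyclin D1 gene, at 1.78 ± 0.131 and 1.43 ± 0.0806 FPKM (SD, n = 3 each; limma adjusted p = 0.376). The median of that list was 0.033 over 10 genes tested.

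**Figure D4:**
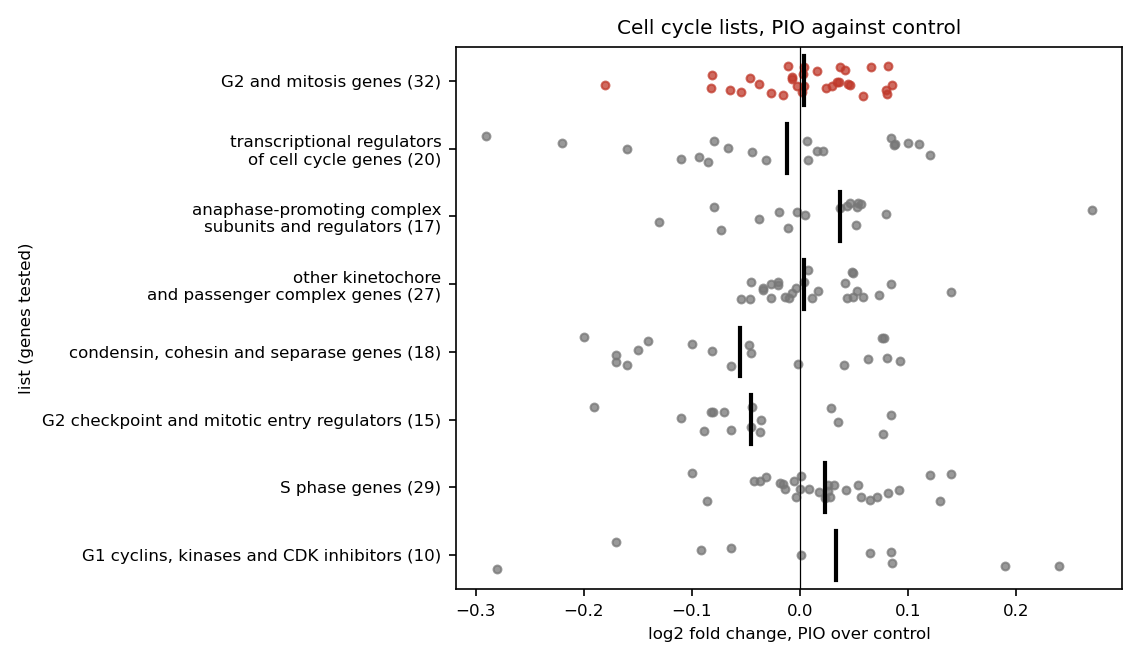
Log2 fold change, PIO over control, of each gene tested in the G2 and mitosis list (red) and 7 other cell cycle lists (grey), with the black bar at the median of the list; vertical scatter within a row has no meaning. The 32 genes lie between -0.18 and 0.085, around a median of 0.0035.

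Library size and the summed level of mast cell markers overlapped between groups. The totals behind the FPKM were 14048202 to 14322720 reads in PIO libraries and 14105533 to 15084729 reads in control libraries. The summed level of 13 mast cell and basophil markers was 4550.5 to 4694.7 FPKM with PIO and 4518.1 to 4712.2 FPKM in control, with Mcpt1, Mcpt8 and Tpsab1 at 0 in every library. Of these 13 markers 9 were tested, and groups did not overlap for 1 of them (11.1%, against 18.5% of all genes). This was Ms4a2, at 805.8 to 847.3 FPKM with PIO and 856.4 to 870.5 FPKM in control. Kit alone had an unadjusted limma p under 0.05 (log2 fold change -0.16, limma adjusted p = 0.371). Markers of macrophages summed to 1.77 to 2.09 FPKM with PIO and 1.69 to 1.98 FPKM in control. Those of T and B cells summed to 0.934 to 1.51 FPKM with PIO and 1.58 to 1.75 FPKM in control, and those of fibroblasts and adipocytes to 4.72 to 4.99 FPKM with PIO and 5.12 to 5.61 FPKM in control. The sums of the last 2 lists did not overlap between groups, and their part in the differences above was not tested. In each of these 2 lists only 1 of 8 genes was abundant enough to test, and it made up the largest part of the sum. These were Cd3e, at 0.699 ± 0.204 FPKM with PIO and 1.01 ± 0.161 FPKM in control, and Col3a1, at 4.75 ± 0.156 and 5.26 ± 0.279 FPKM (SD, n = 3 each). Their limma adjusted p-values were 0.419 and 0.46. In each of these 3 marker lists 2 of 8 genes were at 0 in every library.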

How the data were processed

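Per the labels' protocols, TRIzol was used for RNA and a TruSeq stranded mRNA kit for libraries. The authors deposited 1 table of FPKM, 1 value per gene and library. The submitters' processing notes name BWA 0.7.5a and HISAT2 2.2.1.0, HTSeq, Cufflinks, SAMtools 1.3.1, DESeq, FastQC 0.11.5 and Trimmomatic 0.36. Which of them made these values was not stated in those sources. The build named there is GRCh38, a human one. Gene names and GeneIDs in the table are rat, so the build behind the values is unclear. Promoter windows come from GRCr8 and need not match it.

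FPKM resolved into whole reads for all 15429 genes above 0, within 1e-04 of a read plus 2e-08 of its value, at the smallest gene length that made all 6 values whole. The library totals used for this were estimated first, from genes with few reads. Recovered reads can be too low where all 6 counts of a gene share a common factor. They summed to 13980243 in PIO replicate 1, against a total of 14048202. They are reads, not molecules.

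Limma 3.58.1 (R 4.3.3) was fitted to log2(FPKM + 0.5) of the genes whose mean reached 0.5 FPKM, on group alone, with a variance trend, all tests two-sided, with Benjamini-Hochberg adjusted p under 0.05 as the threshold, adjusted over all 10410 genes. This scale slightly understates folds of low genes. With 3 against 3 libraries an exact permutation test cannot go below p = 0.1, so none was run. Replicate numbers are shared between groups and were checked for pairing. The main fit and, of the settings named next, limma-voom, the replicate block and the length correction were run on simulated data. Every gene had the same dispersion there, and the outcome is not reported here. Alternatives were pseudocounts of 0.1 and 1, no filter, a minimum mean of 5 FPKM, TPM, median-of-ratios and quantile scaling, no variance trend, the replicate block, limma-voom on recovered reads, a length correction (lowess trend of each library, span 0.3) and each library left out. Tables and figures used Python 3.11.15, numpy 2.4.6, pandas 2.3.3 and matplotlib 3.10.9.

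All members are named. Values per library are given for Mki67, Ccnb1, Ccna2, Cdk1, Plk1, Aurka, the lowest p and the highest and lowest level in each role, and also, chosen after their values were seen, for Aurkb, Cdc25b, Mad2l1 and Cenpe and for LOC100364016, Anlnl1, Foxm1 and Mybl2. Of other lists the 2 genes with the lowest p are named. Members and lists were chosen with earlier results of these data known. Ncaph and Cdkn2d were not matched and are not analysed here. Because of symbols stored as spreadsheet dates, 4 rows shared a symbol and were kept apart by GeneID.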

Additional observations from a re-analysis of the deposited data

How the results depend on the processing

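No member was called under any of the 17 alternatives, and the lowest limma adjusted p of any member was 0.257, for Anln with limma-voom on recovered reads. The count of all genes called was 4 as reported, 1 without a filter, 2 without a variance trend and 7 with limma-voom, and 3 to 4 when a library was left out. Of the 32 members, 16 kept their direction under every alternative, Cdk1 and Anln among them, and 16 turned sign under at least 1. The filter changes, the fit without a variance trend and the replicate block leave the members' log2 fold changes as they were. Those settings could not turn a sign. Up to 7 turned under 1 alternative, the length correction. It also moved 4 log2 fold changes by at least 1 SE: Cdk1 (0.085 to 0.049), Birc5 (0.066 to 0.016), Ube2c (0.0017 to -0.053) and Mki67 (0.03 to 0.091). Leaving out control replicate 3 moved 3 members by that much, and leaving out PIO replicate 1 moved 1. The 95% interval of Anln passed 1.25-fold under 7 alternatives (TPM scaling, no variance trend, the replicate block, and without PIO replicate 1, PIO replicate 2, control replicate 1 or control replicate 3), while those of the other members stayed inside in all 17.

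The members' median log2 fold change turned to -0.025 under TPM scaling, where the median of all genes was -0.019, to -0.003 under median-of-ratios and -0.0016 under quantile scaling. With a library left out it ranged from -0.0022 to 0.041. Under TPM scaling the medians were -0.083 for spindle checkpoint genes and -0.028 for spindle and cytokinesis genes. With a library left out, the kinase and phosphatase median ranged from 0.024 to 0.093. The medians of kinases and phosphatases, cyclins, and centromere and kinetochore genes stayed above 0 and that of checkpoint genes below 0 in all 17. The filter, variance trend and replicate block settings among them could not move these medians. The cause of the shifts under the other settings was not tested. Same-numbered libraries showed no clear shared deviation, with correlations of -0.0682, 0.0277 and 0.0776 for numbers 1 to 3. Those of differently numbered libraries ran from -0.094 to 0.0822. With 3 libraries a group this check cannot decide whether same-numbered libraries were handled together. With the replicate block 0 members and 3 genes were called, and the members' median was 0.0035, which a balanced block cannot change.

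The lowest count of a member was 459 reads, in Cenpa, and the share of the spread that comes from counting error was not tested. The 3 libraries a group limit the precision to the intervals given.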
